A study of Mus musculus with 6 samples.

Results

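Kctd12b, its paralogs Kctd12, Kctd8 and Kctd16, and the GABA-B receptor subunits Gabbr1 and Gabbr2 were followed in parental (P) and axitinib-resistant (AxR) 4T1 cells. These 6 genes were taken from the 53465 genes of the count table. Kctd12b was selected on its strong rise between these same P and AxR libraries, so its change between the lines is described here without a test. The other 5 were taken for their relatedness to Kctd12b or because their products bind KCTD proteins. 4T1 is a mouse mammary carcinoma line. AxR cells were grown out of metastatic lesions that arose, once the primary tumor had been cut out, in mice given 100 mg/kg/day of axitinib, which blocks VEGF receptors, and their labels give more than 2 months of treatment at 0.5 μM. The treatment label names axitinib for AxR samples only, although the growth label names 0.5 μM axitinib for all 6 samples, and all were kept in RPMI with 5% serum. Poly(A) RNA was sequenced from 3 libraries of each line, and no source used here says whether the 3 were separate cultures. AxR is a single derived line, so drug exposure, passage through an animal and time in culture cannot be told apart.

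GABA-B receptors are G protein-coupled receptors for the inhibitory transmitter GABA, best known from neurons. GABBR1 binds the ligand, and GABBR2 brings the pair to the cell surface, couples to Gi/o proteins and carries on its tail the site to which KCTD8, KCTD12, KCTD12B and KCTD16 bind. These 4 proteins are auxiliary subunits. KCTD12 and KCTD12B make receptor responses fade quickly, and they do so by binding the G protein βγ dimer, whereas KCTD8 and KCTD16 give lasting responses. Other KCTD proteins are mostly adaptors of the CUL3 ubiquitin ligase.

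Kctd12b (ENSMUSG00000041633.14) lies on the minus strand of chromosome X, from 153685154 to 153696391 in GRCm38, and Kctd12 (ENSMUSG00000098557.1) on chromosome 14 from 102976581 to 102982637, also on the minus strand. Each has its coding sequence in 1 exon. The coding sequences, 876 bases in Kctd12b and 981 in Kctd12, were identical at 66.1% of the 866 aligned positions, with no identical run above 14 bases. The most alike 90 bases are shown because they bear on whether reads of the paralogs can be told apart. They are coding exon sequence from GENCODE M21 transcripts, written 5′ to 3′ on the minus strand, chrX:153688963-153689052 for Kctd12b and chr14:102981613-102981702 for Kctd12. Capitals mark the 19 bases that differ, 18 of them at the last position of a codon.
Kctd12b: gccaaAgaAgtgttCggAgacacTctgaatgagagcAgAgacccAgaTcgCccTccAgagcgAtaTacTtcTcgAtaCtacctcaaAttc
Kctd12: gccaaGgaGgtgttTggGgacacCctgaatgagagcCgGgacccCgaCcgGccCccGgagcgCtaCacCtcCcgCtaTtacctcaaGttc
Coding identity of Kctd12b was 66.6% with Kctd8 and 70.6% with Kctd16. Of 4894 distinct stretches of 50 bases in Kctd12b transcripts, 0 occurred in another of the 6 genes, and 14 (0.286%) occurred in transcripts of any other gene. No annotated gene overlapped Kctd12b.

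Kctd12b went from a trace in P cells to a well expressed transcript in AxR cells. It had 11, 15 and 13 counts in P replicates 1 to 3, against 1487, 1372 and 1345 counts in AxR replicates 1 to 3. Scaled to CPM (counts normalized to the effective library size and a common depth), these were 0.669, 0.866 and 0.848 CPM in P and 94.4, 87.5 and 76.5 CPM in AxR libraries. The lines were far apart and did not overlap. The mean level was 0.794 ± 0.109 CPM in P and 86.2 ± 9.03 CPM in AxR cells (SD, n = 3 each), which is 6.75 on the log2 scale (standard error 0.137). This corresponds to 107-fold. In bulk RNA, fewer cells with the transcript and less transcript per cell cannot be told apart, which applies to the trace in P cells.

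**Figure D1:**
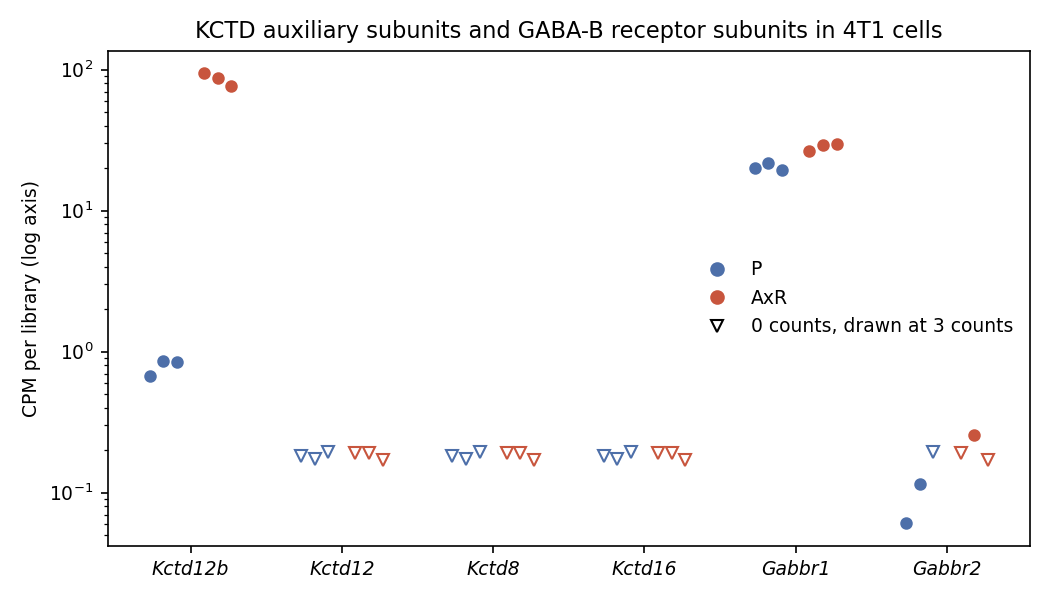
CPM on a log axis (vertical) of the 6 genes in each library, P in blue and AxR in red, with open triangles at the value of 3 counts for libraries without a count. Kctd12b lies between 0.669 and 0.866 CPM in P and between 76.5 and 94.4 CPM in AxR, Gabbr1 shifts slightly, and the other genes lie at or near the floor.

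The size of the Kctd12b change, for which the gene was picked, stood near the top of the table. Its place there is a description. Between the lines, 63.5% of the 13550 genes tested differed at a Benjamini-Hochberg adjusted p below 0.05 in the quasi-likelihood F test of edgeR, with 32.8% higher and 30.8% lower in AxR cells. The libraries of the lines did not overlap for 68.3% of the genes tested. Ordered by log2 fold change, Kctd12b was in place 15 of the genes tested, with Ltc4s and Rsad2 just above it at 6.78 and 6.76 and Upb1 and Lmcd1 just below at 6.73 and 6.72. Among the 9582 genes with at least 10 CPM in the higher line it was in place 2. Per kb of exon, 3.15% of tested genes had a lower level than Kctd12b in P cells and 77.3% in AxR cells.

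The paralogs of Kctd12b were silent at this depth in each of the 6 libraries. Kctd12, the subunit that shares with KCTD12B the quick fading of receptor responses, had 0 counts in each P and each AxR library. Kctd8 (chromosome 5 from 69109285 to 69341679, minus strand) and Kctd16 (chromosome 18 from 40256962 to 40531630, plus strand) also had 0 counts throughout. A count of 0 allows up to 3 counts, which is between 0.171 and 0.196 CPM in these libraries and covers counting error only. These 3 genes had too few counts for a test, so no change between the lines was detectable. Against that floor, Kctd12b per kb of exon was at least 553.5-fold higher than Kctd12 in the AxR library with the smallest difference, and at least 4.527-fold higher in the P library with the smallest difference. With Kctd8 and Kctd16 the smallest bounds in AxR libraries were 308.2-fold and 317.7-fold. If each of the 3 silent paralogs sat at its floor in AxR cells, they would together make up at most 0.813% of the summed level of the 4 KCTD subunits per kb of exon. In P cells that share could reach 50.1%, because Kctd12b itself was so low.

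A lincRNA, Gm26778, runs on the opposite strand of Kctd12 and shares 3805 exon bases with it, and 62.0% of the 50-base stretches of Kctd12 occurred in another gene when both strands were searched. Gm26778 also had 0 counts in all 6 libraries, so reads of Kctd12 were not assigned to it. The promoter windows of RefSeq (GRCm38.p6, 300 bases around the start) covered 4 of the 6 genes, and Kctd12b and Kctd16 were not matched. Kctd12 held 45 CG dinucleotides on the strand of the gene and Gabbr2 46, against a median of 7 over 32851 windows. As many as in Kctd12 were present in 1.93% of windows. Gabbr1 and Kctd8 held 18 and 14. Among these 4 windows, the expressed Gabbr1 lay between the silent Kctd8 below it and the silent Kctd12 and nearly silent Gabbr2 above it.

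The receptor subunits differed from each other in both lines. Gabbr1 (ENSMUSG00000024462.17, chromosome 17 from 37045966 to 37075067, plus strand), the ligand-binding subunit, had 19.9, 21.8 and 19.3 CPM in P replicates 1 to 3 and 26.6, 29.3 and 29.8 CPM in AxR replicates 1 to 3. Every AxR library was above every P library, while the lines did not overlap, in either direction, for 68.3% of all genes tested. The means were 20.3 ± 1.31 and 28.5 ± 1.74 CPM (SD, n = 3 each), and Gabbr1 rose by 0.49 on the log2 scale (standard error 0.0788, adjusted p = 6.60e-05 in the edgeR fit), which is 1.40-fold. The 639 other tested genes of chromosome 17 had a median log2 fold change of 0.17, and 45.2% of them were called higher, beside 32.8% of all genes tested.

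Gabbr2 (ENSMUSG00000039809.10, chromosome 4 from 46662305 to 46991873, minus strand), the subunit to which the KCTD proteins bind, had 1, 2 and 0 counts in the P libraries and 0, 4 and 0 in the AxR libraries. It was at or near the floor in every library and too low for a test. Thus 2 of the 6 genes, Kctd12b and Gabbr1, passed the filter on low counts, and the other 4 did not.

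Compared per kb of exon, the order of the expressed members was inverted between the lines. In P cells Gabbr1 stood at 2.62 CPM per kb and Kctd12b at 0.162, whereas in AxR cells Kctd12b stood at 17.6 and Gabbr1 at 3.68. The Kctd12b level per kb was 0.0531, 0.0628 and 0.0695 of that of Gabbr1 in P replicates 1 to 3. In AxR replicates 1 to 3 it was 5.63, 4.72 and 4.07 times that of Gabbr1. The ranges of Kctd12b and Gabbr1 did not overlap in either line. This order is a description, since Kctd12b was chosen for its change.

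Within the whole KCTD family, Kctd12b moved from near the bottom to place 3. The list held 24 other genes, of which 17 had enough counts for a test, 1 rose, 9 fell and 7 did not pass. The 10 called are 58.8% of the 17, beside 63.5% of all genes tested, and the median log2 fold change was -0.16, beside 0.006 over all genes tested. Of the genes not tested, Kctd12, Kctd8, Kctd16 and Kctd14 had no count, Kctd19 had at most 1, Kctd4 at most 6 and Kcnrg at most 8.

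Kctd17, a CUL3 adaptor, was the member that rose. It had 8.27, 9.41 and 6.85 CPM in P replicates 1 to 3 and 14.7, 15.3 and 13.5 CPM in AxR replicates 1 to 3, or 0.82 ± 0.118 (SE) on the log2 scale (adjusted p = 2.11e-05 from edgeR). The largest fall was that of Kctd11, a CUL3 adaptor known as a suppressor of Hedgehog signalling, from 26.9 ± 0.919 to 12.9 ± 1.02 CPM (SD, n = 3 each), which is -1.07 on the log2 scale (adjusted p = 2.92e-08 from edgeR). Kctd7, mutated in a progressive myoclonic epilepsy, fell by 0.77 and Kctd3 fell by 0.61 on the log2 scale. Kctd10 and Tnfaip1, CUL3 adaptors for the GTPase RhoA, fell by 0.26 and 0.16 on the log2 scale, while their paralog Kctd13 did not pass (log2 fold change -0.09). The log2 fold changes of the other genes that fell were -0.30 for Kctd18, -0.25 for Kctd9 and for Kctd15, and -0.23 for Kctd2. Kctd2 was not called with DESeq2 (adjusted p = 0.0851) or without P replicate 1 or 2 or AxR replicate 1 or 2 (adjusted p from 0.0644 to 0.0856 from edgeR). Kctd5, Kctd6, Kctd20, Kctd1, Kctd21 and Shkbp1 did not pass, their log2 values being 0.14, 0.14, 0.01, -0.03, -0.11 and -0.13 in that order. Kctd5 also rose when AxR replicate 2 was left out (log2 fold change 0.20, adjusted p = 0.0444 from edgeR), which made 2 genes higher.

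**Figure D2:**
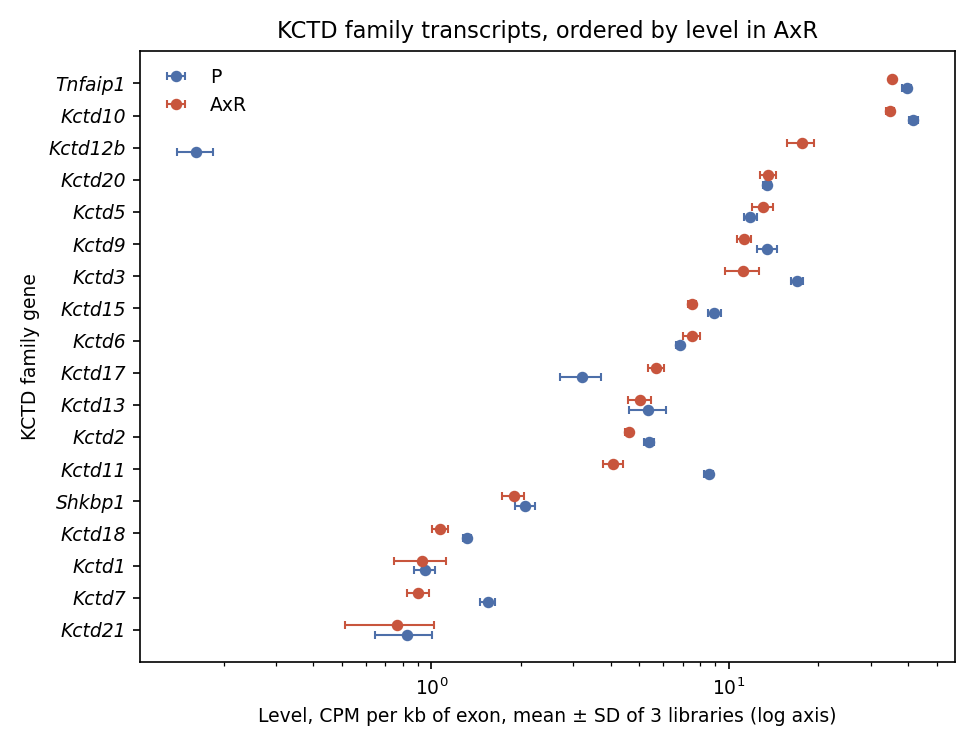
Mean level (horizontal, CPM per kb of exon, log axis) with SD over 3 libraries for the 18 tested KCTD family genes, P in blue and AxR in red, ordered by level in AxR. Kctd12b is the lowest in P at 0.162 and in place 3 in AxR at 17.6, while none of the other genes moves by more than 1.07 on the log2 scale.

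Tnfaip1 and Kctd10 led the family in both lines, with 35.4 ± 0.648 and 34.8 ± 1.13 CPM per kb in AxR cells (SD, n = 3 each), values that did not differ beyond their spread. Kctd12b followed with 17.6 ± 1.84 CPM per kb, and its AxR libraries, from 15.6 to 19.2, stood apart from those of Kctd20 below it, from 12.7 to 14.4. Kctd20 and Kctd5 overlapped, and so did Kctd9 and Kctd3. In P cells Kctd12b was in place 19 of 25, next to the untested Kcnrg at 0.166 ± 0.0509 CPM per kb, from which it did not differ beyond the spread. Kctd12b made up 0.0765%, 0.0934% and 0.0957% of the summed family level per kb in P replicates 1 to 3 and 11.1%, 10.1% and 8.68% in AxR replicates 1 to 3.

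The genes tested next to Kctd12b on chromosome X had much smaller changes, in both directions. Nbdy, whose start lies 27.2 kb away, had 28.8, 25.1 and 26.4 CPM in P replicates 1 to 3 and 19.9, 22.8 and 25.0 CPM in AxR replicates 1 to 3. Nbdy encodes a short protein of P-bodies, and its log2 fold change was -0.24 (adjusted p = 0.0264 from edgeR), a call lost without P replicate 1 or 3 or AxR replicate 1 or 2 (adjusted p from 0.0609 to 0.139 from edgeR). On the other side, Ubqln2, a ubiquitin-binding shuttle for the proteasome, started at -198.2 kb, negative distances lying at lower coordinates, and rose from 11.2 ± 0.889 to 19.45 ± 1.502 CPM (SD, n = 3 each), which is 0.79 on the log2 scale (adjusted p = 3.19e-06 from edgeR). Klf8, a zinc finger transcription factor at -458.9 kb, and Gm6645, at 1278.3 kb, did not pass, with log2 fold changes of -0.38 and -0.32. Of 44 other genes of the table that start within 1 Mb, 5 were tested, 2 of them higher and 1 lower, with a median log2 fold change of -0.03. Among the 39 not tested, 35 had no count and the highest count was 12, in Spin2c. Within 5 Mb, 34 genes were tested, with log2 fold changes from -0.60 for Gm6451 to 2.17 for Maged2. Over the rest of chromosome X, 404 genes were tested and their median was 0.24. Of these, 49.3% were called higher, beside 32.8% of all genes tested.

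**Figure D3:**
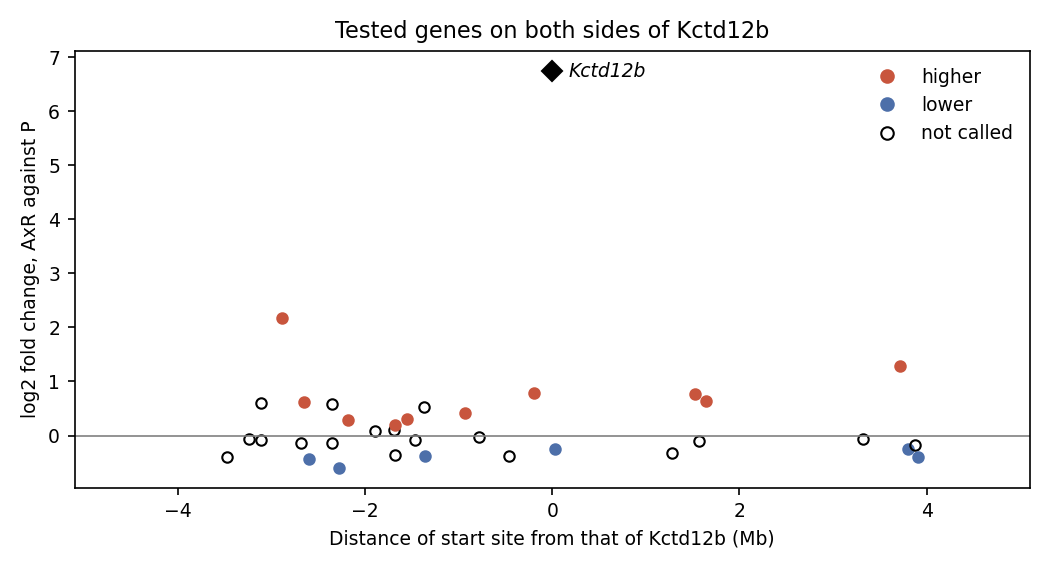
log2 fold change of AxR against P (vertical) of genes tested within 5 Mb of Kctd12b by the distance of their start sites in Mb (horizontal), filled red or blue where higher or lower at an adjusted p under 0.05 and open where not called. Kctd12b stands at 6.75, and the other 34 genes lie between -0.60 and 2.17.

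Around the silent Kctd12, some genes were expressed. Its nearest tested neighbour, Acod1, which encodes the enzyme that makes itaconate, started 64.3 kb away. Acod1 had no count in the P libraries and 1.52, 1.15 and 1.25 CPM in AxR replicates 1 to 3, so its AxR mean was at least 6.686-fold higher than the highest library floor, 0.196 CPM. On the other side, at more than 1 Mb, Lmo7 had a log2 fold change of 2.11 and Uchl3 of -0.25 (adjusted p = 9.33e-11 and 0.00931 from edgeR). Within 1 Mb of Kctd12, 4 of 5 tested genes were higher in AxR cells, beside 35.3% of 467 other genes tested on chromosome 14 and 32.8% of all genes tested. Acod1, among the 4, passed the low-count filter only through its AxR libraries. Another 17 of the 22 genes that start within 1 Mb were not tested, and 12 of these had no count.

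Among the genes most like Kctd12b over the 6 libraries were Glipr1, As3mt, Mxra8 and Clmn. Likeness was the Euclidean distance between log2 CPM values centred on each gene's mean, which was 1.11, 1.14, 1.29 and 1.36 in that order. Clmn went from 0.810 ± 0.217 to 41.4 ± 2.29 CPM (SD, n = 3 each) and Mxra8, an adhesion protein and alphavirus receptor, from 0.484 ± 0.196 to 28.5 ± 2.64 CPM (SD, n = 3 each). As3mt, the arsenic methyltransferase, and Glipr1 reached 8.17 ± 0.776 and 9.53 ± 0.853 CPM in AxR cells (SD, n = 3 each). These 4 genes lie on chromosomes 10, 19, 4 and 12, none of them on X. With 3 libraries on each side, the distance reflects mainly the size of the difference between the lines.

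Of the 97 genes in 9 lists around GABA-B receptors, from G proteins and channels to GABA synthesis, 47 had enough counts for a test. In AxR cells 14 rose, 21 fell and 12 did not pass, so that 74.5% were called, beside 63.5% of all genes tested. The shares were 29.8% higher and 44.7% lower, beside 32.8% and 30.8%. The median log2 fold change of these 47 was -0.17. These are counts over genes chosen with earlier results known. They include called genes that passed the low-count filter only through the line in which they were higher. Gng3, Gng7, Rgs14 and Gabrd passed through AxR libraries, and Gng11 and Rgs7 through P libraries. The shares are therefore a description.

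Of the Gi/o α subunits, which carry the receptor signal, 3 of 5 were tested, 2 rose and 1 did not pass. The share called was 66.7%, beside 63.5% of all genes tested. Gnao1, the neuronal Go subunit, rose from 3.95, 3.75 and 3.46 CPM in P replicates 1 to 3 to 8.19, 9.63 and 9.79 CPM in AxR replicates 1 to 3, a log2 fold change of 1.3 (adjusted p = 7.07e-07 from edgeR). Gnai3, with the highest mean CPM of them before any division by gene length, rose from 353 ± 26.8 to 577 ± 16.2 CPM (SD, n = 3 each). This is 0.71 on the log2 scale (adjusted p = 3.30e-08 from edgeR). Gnai2, at 314 ± 14.4 and 318 ± 16.6 CPM (SD, n = 3 each), did not pass.

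Of the β and γ subunits, to which KCTD12-type subunits bind, 11 of 17 were tested, 3 rose, 4 fell and 4 did not pass. The share called was 63.6%, beside 63.5% of all genes tested. Gng3 and Gng7, among the 3 that rose, passed the low-count filter only through AxR libraries. Gng11, among the 4 that fell, passed it only through P libraries. With at least 10 counts in every library, 1 gene of the list was higher and 3 lower. Gng7 had the largest rise, from 0.381 ± 0.161 to 1.35 ± 0.140 CPM (SD, n = 3 each), which is 1.79 on the log2 scale. It passed the low-count filter only through its AxR libraries, so no p-value is given for its rise. Gng11 had 13.5, 15.9 and 15.1 CPM in P replicates 1 to 3 and no count in any AxR library, so it was at least 75.8-fold lower in AxR cells at the highest library floor. Gnb4 fell from 17.0, 13.9 and 14.5 CPM in P replicates 1 to 3 to 2.16, 2.30 and 1.71 CPM in AxR replicates 1 to 3, a log2 fold change of -2.88 (adjusted p = 3.03e-10 from edgeR). Summed over the list, the level was between 1099 and 1130 CPM in P libraries and between 1138 and 1166 CPM in AxR libraries. Without P replicate 2, 7 of the list fell, Gng5, Gng10 and Gng12 being added.

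**Figure D4:**
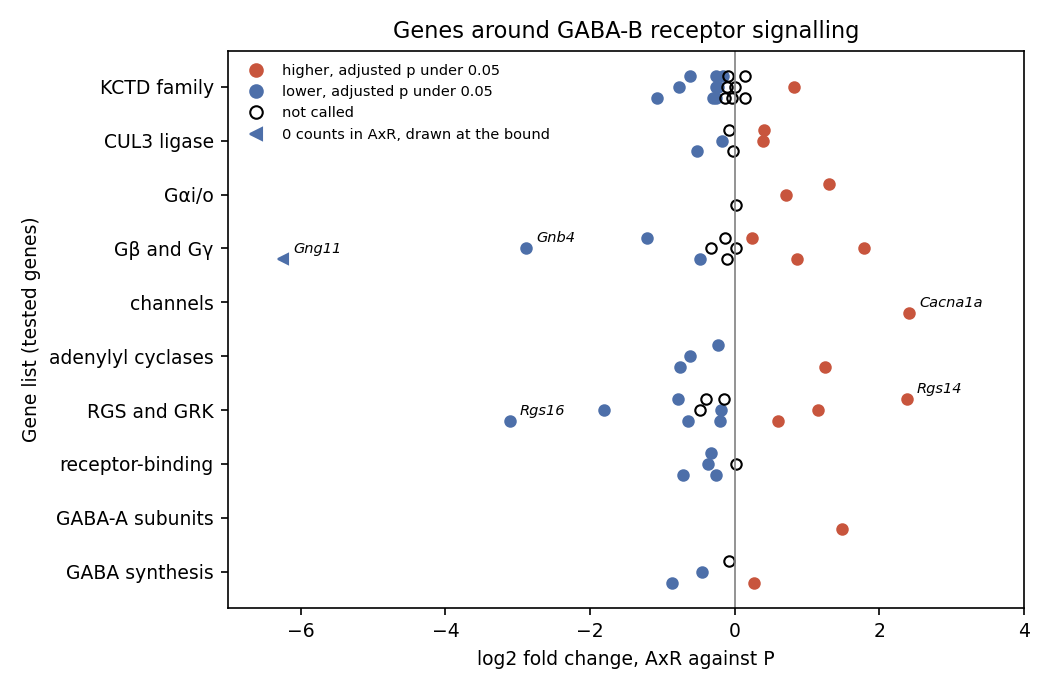
log2 fold change of AxR against P (horizontal) for tested genes of the KCTD family, without Kctd12b, and of the 9 lists around GABA-B receptors (rows), filled red or blue where higher or lower at an adjusted p under 0.05 and open where not called. Most genes lie near 0, Cacna1a and Rgs14 reach 2.41 and 2.38, Rgs16 and Gnb4 -3.11 and -2.88, and Gng11 is drawn as a triangle at its bound of -6.24.

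The ion channels through which GABA-B receptors act were mostly silent. The potassium channel genes Kcnj3, Kcnj5 and Kcnj6 had no count and Kcnj9 at most 1. Cacna1a, the pore subunit of P/Q-type calcium channels, was the 1 of 7 tested, with 0.851, 1.27 and 0.848 CPM in P replicates 1 to 3 and 5.46, 3.64 and 6.83 CPM in AxR replicates 1 to 3. It rose by 2.41 on the log2 scale (standard error 0.271, adjusted p = 2.13e-06 from edgeR), with no overlap between the lines, as for 68.3% of all genes tested. Cacna1e, the R-type channel gene, had at most 1 count. When P replicate 1 or 3, or AxR replicate 2, was left out, 2 genes of this list were higher, the other being Cacna1b, the N-type channel gene. Cacna1b had at most 15 counts, with means of 0.0193 CPM in P and 0.624 CPM in AxR cells. It could pass the low-count filter only through its AxR libraries, so these calls do not count as a test of its rise.

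All 4 adenylyl cyclases tested, of 10, were called, beside 63.5% of all genes tested. Adcy3 rose from 13.6, 11.4 and 12.8 CPM in P replicates 1 to 3 to 31.3, 30.4 and 28.7 CPM in AxR replicates 1 to 3, a log2 fold change of 1.25 (adjusted p = 5.75e-09 from edgeR). The other 3 fell, Adcy9 most, with a log2 fold change of -0.76 (adjusted p = 0.00112 from edgeR). Of the RGS proteins, which switch off G proteins, and the receptor kinases of the GRK family, 12 of 14 were tested, 3 rose and 6 fell. The share called was 75%, beside the same 63.5%. Rgs7, among the 6 that fell, passed the low-count filter only through its P libraries. With at least 10 counts in every library, 2 genes of the list were higher and 5 lower. Rgs16 fell from 37.6, 40.8 and 37.7 CPM in P replicates 1 to 3 to 5.40, 3.51 and 4.49 CPM in AxR replicates 1 to 3, a log2 fold change of -3.11 (adjusted p = 6.17e-12 from edgeR). Rgs14 had the largest rise, a log2 fold change of 2.38, at low levels of 0.241 ± 0.0961 CPM in P and 1.29 ± 0.325 CPM in AxR cells (SD, n = 3 each). It passed the low-count filter only through its AxR libraries, so no p-value is given for its rise.

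Of 7 genes whose proteins bind the receptor, 5 were tested, 4 fell and 1 did not pass. The 4 called are 80% of the 5, beside 63.5% of all genes tested, 30.8% being lower. Ywhah, a 14-3-3 protein, fell most, with a log2 fold change of -0.71 (adjusted p = 1.34e-08 from edgeR). App, Nsf and Mpdz had smaller log2 fold changes of -0.37, -0.33 and -0.25. In the CUL3 ligase list, with 6 of 6 tested, 2 rose and 2 fell, so that 66.7% were called, beside the same 63.5%. Cul3 itself went down from 281 ± 4.70 to 197 ± 3.46 CPM (SD, n = 3 each), which is -0.52 on the log2 scale (adjusted p = 1.19e-07 from edgeR), and its RING partner Rbx1 rose by 0.41 (adjusted p = 2.65e-04 from edgeR). Without any single library other than AxR replicate 2, only Cul3 of the list was lower.

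On the side of GABA itself, the genes of the synthesizing enzymes were at or near the floor, Gad1 with 0 counts and Gad2 with at most 2 in any library. Of 12 genes of GABA synthesis, breakdown and transport, 7 had at most 3 counts in every library, 4 were tested, 1 rose and 2 fell. The share called was 75%, beside 63.5% of all genes tested. Glul, glutamine synthetase, went down from 104 ± 3.09 to 57.0 ± 3.20 CPM (SD, n = 3 each), which is -0.86 on the log2 scale (adjusted p = 5.67e-09 from edgeR), and Aldh9a1 rose by 0.27 (adjusted p = 0.00313 from edgeR). Of 19 GABA-A receptor subunits, which form the chloride channels for GABA, 17 had at most 3 counts. Gabrd, the 1 tested, rose from 0.530 ± 0.0905 to 1.49 ± 0.0607 CPM (SD, n = 3 each), which is 1.48 on the log2 scale. Gabrd passed the low-count filter only through its AxR libraries, so no p-value is given for its rise.

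Libraries held between 15495260 and 17294525 estimated counts. Of 9 epithelial markers 8 were tested, 5 higher and 3 lower in AxR cells, beside 32.8% and 30.8% of all genes tested. Their log2 fold changes ran from -3.43 for Cldn7 to 2.45 for Krt14. Krt8 and Cdh1 were at 313 ± 27.9 and 556 ± 1.54 CPM in P cells (SD, n = 3 each), while Krt5 was at 0. None of 8 neuronal markers was tested, Snap25 and Stmn2 were at 0, and the list summed to between 0.196 and 0.751 CPM in P and between 0.383 and 0.967 CPM in AxR libraries. None of 6 endothelial and 5 lung epithelial markers was tested, the highest sums being 0.635 and 0.426 CPM. Fibroblast markers summed to between 22.5 and 24.1 CPM in P and between 10.2 and 11.6 CPM in AxR libraries, nearly all of it Pdgfra, with Col3a1, Thy1 and Lum at 0. Leukocyte markers moved in the direction of Kctd12b, from sums between 6.14 and 8.09 CPM to sums between 16.3 and 17.0 CPM, through Cd68 and Cd14, the 2 tested of 8. Tyrobp, Fcer1g and Cd3e were at 0 and Ptprc had at most 2 counts. The part of other cells in the Kctd12b level was not tested.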

How the data were processed

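RNA was measured in 3 libraries of P and 3 of AxR 4T1 cells. The authors aligned stranded, poly(A)-selected reads to GRCm38 with STAR 2.6.0a and GENCODE M16 and deposited estimated counts per gene from RSEM 1.3.1, before filtering and normalization. Read quality was checked with FastQC 0.11.5. Estimated counts were rounded, low genes were removed (filterByExpr), upper-quartile factors were used and the lines were compared in edgeR 4.0.16 (robust quasi-likelihood F test, line as the only term, Benjamini-Hochberg adjustment, threshold 0.05) in R 4.3.3. Standard errors are the log2 fold change divided by the square root of F. CPM used the normalized library size, levels between genes the union of exons of GENCODE M21 (53360 of 53465 identifiers found), and log2 CPM a prior count of 2. The floor was 3 counts, and bounds against a line without counts used the highest library floor. P-values measure the spread between these libraries, which may be technical. Replicates of a line differed by more than sampling noise (chi-square over its degrees of freedom, 4.75 to 17.9).

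Members and gene lists were chosen with earlier results of these data known. Named genes are the 6 members, the tested KCTD family, the largest rise and fall called in each list, the nearest 2 tested genes on each side of Kctd12b and Kctd12, and the 5 genes most like Kctd12b. Some genes that this rule selects are not reported here. Other genes named with values, such as Cacna1b, Gad1, Gad2, Gnai2, Gnai3, Gnb4, Spin2c, Gm6451, Maged2 and the genes next to Kctd12b in the order of fold changes, were chosen after their values were seen. Coding sequences were aligned globally. Tests were tried on simulated counts. The alternatives were TMM, library size only, DESeq2 1.42.0, limma-voom (limma 3.58.1), other filters, the replicate number as a block, each library left out, another prior count and another gene length.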

Additional observations from a re-analysis of the deposited data

How the results depend on the processing

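Across all alternatives the log2 fold change of Kctd12b lay between 6.64 and 6.83 and that of Gabbr1 between 0.45 and 0.54, and Gabbr1 passed the threshold in each. The number of genes called higher lay between 3962 and 4761 and of those called lower between 3782 and 4337. Of the values that answer a comparison, 297 kept their side of the threshold or their range, 9 became weaker, 6 stronger and 1 moved, and of those for single genes 551 were the same, 9 weaker and 8 stronger. With lengths of the longest transcript, the Kctd12b level per kb over that of Gabbr1 in AxR cells was 3.29 in place of 4.81. With DESeq2 or the replicate block 1 gene of the CUL3 ligase list was lower, and without a low-count filter 2 channel genes were higher. With at least 10 counts in every library 1 Gβ or Gγ gene and 0 GABA-A subunits were higher, because the others were not tested. With each library left out, from 1 to 2 CUL3 ligase genes, from 4 to 7 Gβ or Gγ genes were lower, and from 1 to 2 channel genes and from 1 to 2 KCTD family genes were higher. The replicate number did not pair the libraries: same-numbered libraries of the lines had correlations of deviations of -0.009, -0.159 and -0.245 over 9187 genes, and with the replicate block 4304 genes were higher and 4023 lower, with log2 fold changes of 6.75 for Kctd12b and 0.49 for Gabbr1. Depth limits Kctd12, Kctd8 and Kctd16, whose 0 counts allow up to 3 counts, and Gabbr2, which had at most 4 counts in a library.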
